A study of Mus musculus with 3 samples.

Results

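The respiratory chain and ATP synthase of mitochondria are built from subunits that 2 genomes encode, and the nuclear-encoded members are described here across the cell classes of the mouse small intestine around birth. Members were all gene symbols of the deposited feature lists that begin with Ndufa, Ndufb, Ndufc, Ndufs, Ndufv, Uqcr or Atp5, the symbols Sdha, Sdhb, Sdhc and Sdhd, and symbols that begin with Cox4, Cox5, Cox6, Cox7 or Cox8 followed by a letter. The rule took 92 of 22100 symbols and used names alone, no measured value. It took 37 members of complex I, 8 complex I assembly factors (Ndufaf1 to Ndufaf8), 4 members of complex II, 8 of complex III, 18 of complex IV and 17 of ATP synthase. The complex I group includes Ndufb1-ps, which the gene annotation lists as a non-coding RNA. The complex IV group includes tissue isoforms and Cox7a2l, a supercomplex factor. All 92 members had at least 1 UMI (unique molecular identifier, the tag of 1 captured RNA molecule) in each of the 3 libraries.

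Small intestine came from wild-type, untreated mice at 2 embryonic stages named by embryonic day, E15.5 and E17.5, and at P7, the seventh day after birth. Per stage 1 droplet library was made from 3′ ends of transcripts. Live cells were sorted as Epcam-positive, or as negative for Epcam, CD31 and CD45, from joined epithelial and mesenchymal fractions. The libraries held 8447, 11598 and 8391 cells with 93501273, 94023160 and 116038115 UMIs. Neither the strain nor how many animals went into a library is known here. With 1 library per stage no test between stages was possible, and cells are not replicates, so no p-value is given. Every interval is a 95% interval and covers counting error only. Intervals are exact Poisson for the CPM of a gene (UMIs of a gene per 1000000 UMIs of the class) and exact conditional binomial for log2 ratios. They are exact binomial for shares and for CPM summed over members.

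The chain passes electrons from NADH through complex I, or from succinate through complex II, to complex III and then through complex IV to oxygen. Complexes I, III and IV pump protons across the inner membrane, and ATP synthase uses the returning protons to make ATP through a rotor whose ring is built of c subunits. Part of the core of complex I, the catalytic core of complex IV, cytochrome b and parts of ATP synthase come from mitochondrial DNA, with symbols that begin with mt-. Intestinal crypts hold dividing cells, enterocytes of the villus absorb nutrients, and the enterocytes of suckling rodents take up milk protein into large lysosomes in the distal gut and lipid in the proximal gut.

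Cells were clustered within each library, and clusters were named from marker lists, so each name reads as "like". Classes, with their cells, are given here as E15.5, E17.5 and P7. Enterocyte-like cells numbered 111 at E15.5 and 362 at E17.5. At P7 they formed 7 clusters, split at 500 CPM of Lgmn, a lysosomal protease gene, into a Lgmn-high group of 1477 cells and a Lgmn-low group of 1302 cells. That split is a set cut, and clusters 10 and 11 lay next to the gate with 169 and 776 CPM of Lgmn. Whether the groups are separate cell types or parts of a range was not tested. P7 crypt-like cells numbered 1958, and epithelial cells with no marker of a mature kind, called undifferentiated, numbered 1004 at E15.5 and 830 at E17.5. Visceral muscle-like cells, rich in Actg2 and Des, numbered 1232, 1333 and 88. Fibroblast-like cells numbered 2996, 5302 and 1030, neuronal-like cells 690, 909 and 176, and glial-like cells 345, 1071 and 66. The defining markers of the absorptive list summed to 20943 CPM in E15.5 enterocyte-like cells, 60018 CPM in E17.5 enterocyte-like cells, and 72135 CPM (Lgmn-high) and 76885 CPM (Lgmn-low) at P7, against 2496 CPM in P7 crypt-like cells. Undifferentiated cells were not free of these markers, with 3572 CPM at E15.5 and 3426 CPM at E17.5.

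UMIs of markers of other cell types were found in classes of every library, and whether they came from free RNA or from mixed cells was not tested. Absorptive markers summed to 1063 CPM in P7 fibroblast-like cells and to 3182 CPM in P7 visceral muscle-like cells, against 46.2 CPM in fibroblast-like cells at E15.5. Erythroid markers summed to between 1770 CPM (Cajal-like) and 19288 CPM (enteroendocrine-like) over the E17.5 classes. No deposited cell exceeded 15.0% of mitochondrially encoded UMIs, so cells above that share had been taken out before deposit. The barcode lists of the 3 libraries are identical, so cells shared between libraries could not be counted.

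Summed over all 92 members, enterocyte-like cells held the highest level of the named classes at each stage. The sum was 59002 CPM (58719 to 59285) in E15.5 enterocyte-like cells, 56545 CPM (56363 to 56727) in E17.5 enterocyte-like cells and 52742 CPM (52650 to 52833) in P7 Lgmn-low cells. P7 Lgmn-high cells held 38931 CPM (38857 to 39005), close to the 36864 CPM of P7 crypt-like cells. At the other end, fibroblast-like cells held 25886 CPM at E15.5, 22017 CPM at E17.5 and 19357 CPM at P7. Visceral muscle-like cells held 38808, 42590 and 46802 CPM, but among the members the direction of the step to P7 turned with how the P7 class was drawn. Neuronal-like cells held 32150, 30259 and 27891 CPM, and glial-like cells 27583, 22859 and 19365 CPM. At P7 the order of the remaining classes was other epithelial cells (40247 CPM), goblet-like cells (27865 CPM), muscle outside the visceral class (27442 CPM), enteroendocrine-like cells (26297 CPM) and a mixed secretory cluster (24093 CPM). Neighbours in the P7 order with overlapping intervals were neuronal-like (27682 to 28101 CPM) and goblet-like cells (27717 to 28014 CPM), and glial-like (18749 to 19996 CPM) and fibroblast-like cells (19236 to 19478 CPM).

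**Figure D1:**
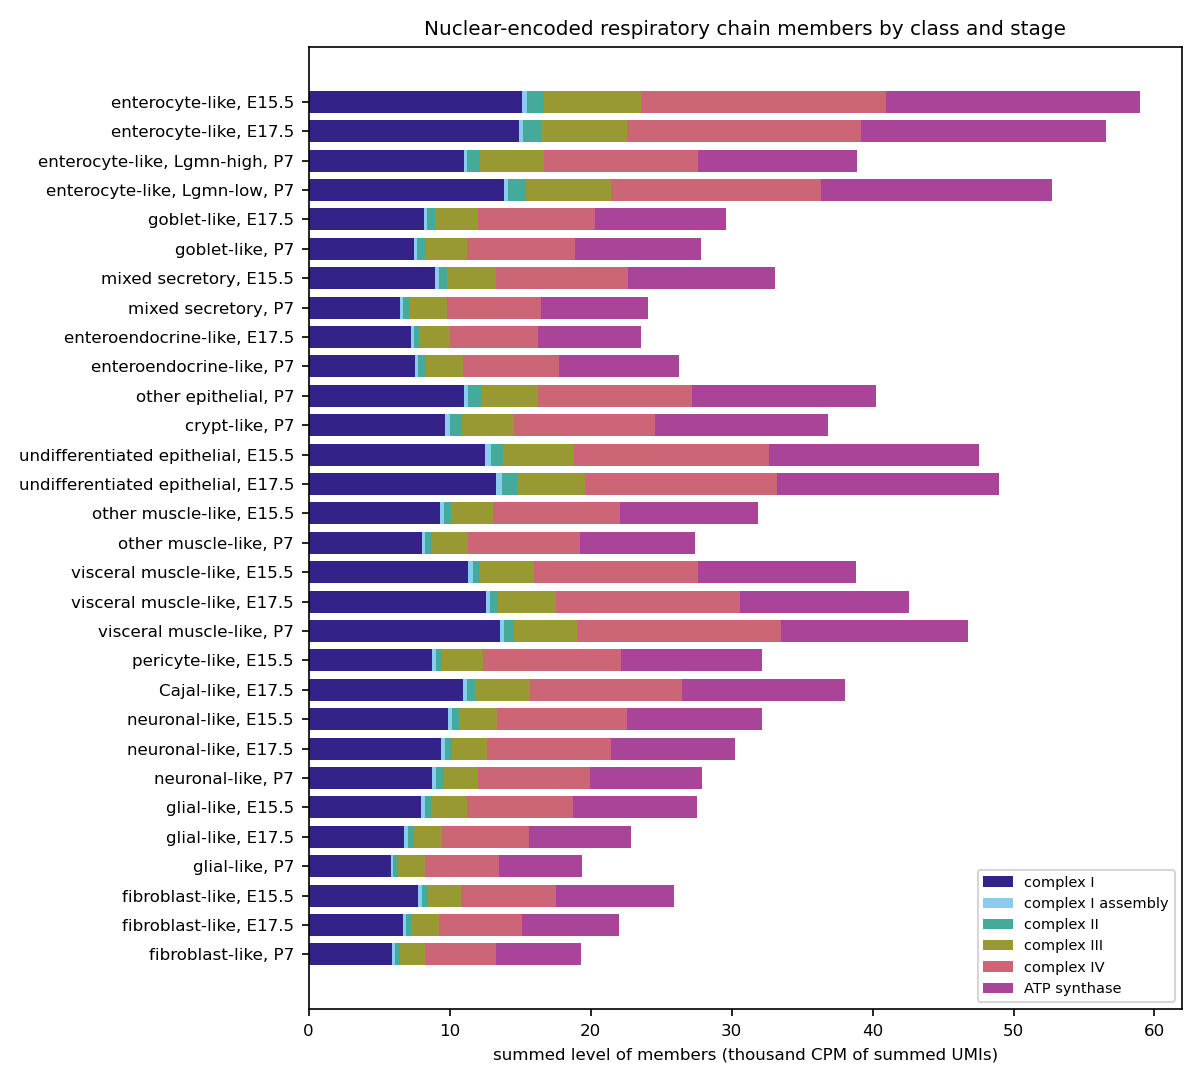
Summed level of the nuclear-encoded members in units of 1000 CPM (x axis) for each cell class and stage, with bars divided by complex; each bar is 1 group of cells from 1 library. Enterocyte-like bars are the longest at E15.5 (59002 CPM) and E17.5 (56545 CPM), and at P7 the Lgmn-low enterocyte-like bar (52742 CPM) is followed by visceral muscle-like cells (46802 CPM).

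Most members followed the sum. Of the 90 members with 100 or more UMIs over the E15.5 classes, 74 were highest in enterocyte-like cells, and 58 of 91 were highest there at E17.5. At P7, 47 of 90 members were highest in Lgmn-low cells, 27 in visceral muscle-like cells and 4 in Lgmn-high cells. The lowest level lay in fibroblast-like cells for 39, 30 and 37 members at E15.5, E17.5 and P7, and in glial-like cells for 20, 27 and 36. The median member differed 2.49-fold between its highest and lowest class at E15.5, 2.94-fold at E17.5 and 3.18-fold at P7. A difference of 4-fold or more was found for 9, 18 and 23 members.

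Before birth, enterocyte-like cells exceeded the undifferentiated epithelium of their own library. At E15.5, 5 of 89 members with 100 or more UMIs over both classes were at least 1.5-fold higher (15.1% of all genes were) and 1 was at least 1.5-fold lower (23.3% of all genes), with a median log2 ratio of 0.27 against -0.09 over all genes. At E17.5, 5 of 88 members were at least 1.5-fold higher (21.2% of all genes) and 2 at least 1.5-fold lower (29.4% of all genes), with a median of 0.14 against -0.12. Shares of members past 1.5-fold were below those of all genes in both directions, and the shift of the members was small and broad: 81 of 89 at E15.5 and 66 of 88 at E17.5 had a ratio above 0. Cox7a1, a heart and muscle isoform of a complex IV subunit, stood at 48.4 CPM in E15.5 enterocyte-like cells against 13.5 CPM in undifferentiated cells (log2 ratio 1.84, 1.54 to 2.14). At E17.5 it stood at 50.1 CPM in enterocyte-like cells against 9.69 CPM in undifferentiated cells (2.37, 2.08 to 2.67). Ndufa6, an accessory subunit of complex I, had 739.5 CPM in E17.5 enterocyte-like cells against 399.7 CPM in undifferentiated cells (0.89, 0.83 to 0.94). The 2 lower members at E17.5 were both among the 8 assembly factors: Ndufaf2 had 24.5 CPM in E17.5 enterocyte-like cells against 76.1 CPM in undifferentiated cells (-1.63, -1.89 to -1.39), and Ndufaf4 had 36.4 CPM against 80.6 CPM (-1.15, -1.36 to -0.94).

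From E15.5 to E17.5 the enterocyte-like level moved little. Of 87 members, 0 were at least 1.5-fold higher (10.3% of all genes) and 2 at least 1.5-fold lower (15.7% of all genes), and the median log2 ratio was -0.06 against -0.15 over all genes. The 2 lower members were Ndufaf4, with 36.4 CPM at E17.5 against 94.6 CPM at E15.5 (-1.38, -1.64 to -1.11), and Uqcr11, a small subunit of complex III, with 776 CPM at E17.5 against 1210.1 CPM at E15.5 (-0.64, -0.71 to -0.58). Cluster 31 of the E17.5 class, 69 cells with 0.7% of mitochondrially encoded UMIs, held 67614 CPM of members, and the E17.5 class without it held 55346 CPM. The undifferentiated epithelium differed as little over this step: 1 of 89 members was at least 1.5-fold higher (6.08% of all genes) and 2 at least 1.5-fold lower (12.5% of all genes).

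At P7 the 2 enterocyte-like groups parted. Lgmn-low cells exceeded crypt-like cells in 79 of 88 members, and 30 of 88 were at least 1.5-fold higher (23.2% of all genes were) against 3 at least 1.5-fold lower (36.1% of all genes). The median log2 ratio was 0.47, against -0.22 over all genes, and the summed level was 0.52 higher (0.51 to 0.52). Members at least 1.5-fold higher were 14 of 37 in complex I, 2 of 4 in complex II, 4 of 8 in complex III, 6 of 14 measured in complex IV and 4 of 17 in ATP synthase, but 0 of 8 among the complex I assembly factors, whose median was -0.37. Cox7a1 had 49.3 CPM in Lgmn-low cells against 8.49 CPM in crypt-like cells (2.54, 2.35 to 2.73), the highest ratio of the members. Uqcrq, a subunit of complex III, had 1295 CPM in Lgmn-low cells against 541 CPM in crypt-like cells (1.26, 1.23 to 1.29). Sdhb, the iron-sulphur subunit of complex II, had 461 CPM in Lgmn-low cells against 219.5 CPM in crypt-like cells (1.07, 1.03 to 1.11). Ndufa1 and Ndufv3 of complex I each had a log2 ratio of 1.07 over crypt-like cells. Of the 3 lower members, 2 were assembly factors: Ndufaf2 had 27.7 CPM in Lgmn-low cells against 61.4 CPM in crypt-like cells (-1.15, -1.28 to -1.02) and Ndufaf5 had 6.61 CPM against 12.8 CPM (-0.96, -1.23 to -0.69). The third was Cox6b2, a complex IV isoform known from testis, with 3.13 CPM in Lgmn-low cells against 18.9 CPM in crypt-like cells (-2.60, -2.97 to -2.24).

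Lgmn-high cells were lower than Lgmn-low cells of the same library in 81 of 88 members. Of these, 25 were at least 1.5-fold lower (12.8% of all genes were), and 1 was at least 1.5-fold higher (16.9% of all genes). The median log2 ratio was -0.46, against 0.04 over all genes, and the members' summed level was lower by the same order (-0.44). Each complex held such members. At least 1.5-fold lower were 9 of 37 members of complex I, 4 of 8 assembly factors and 1 of 4 members of complex II. The same held for 3 of 8 of complex III, 3 of 14 of complex IV and 5 of 17 of ATP synthase. All 17 of 17 members of ATP synthase had a ratio below 0. Ndufaf4 had 19.0 CPM in Lgmn-high cells against 41.7 CPM in Lgmn-low cells (-1.13, -1.29 to -0.98). Cox7b, a small subunit of complex IV, had 556 CPM in Lgmn-high cells against 1071 CPM in Lgmn-low cells (-0.95, -0.98 to -0.92). Atp5o, which joins the stalk of ATP synthase to its catalytic head, had 671 CPM against 1224 CPM (-0.87, -0.89 to -0.84), and Uqcrfs1, the Rieske iron-sulphur subunit of complex III, 254 CPM against 452 CPM (-0.83, -0.87 to -0.79). These genes stood apart by less than 1 log2 unit, except Ndufaf4. A few members were not lower: Cox7a2l, a supercomplex factor, had 489.6 CPM in Lgmn-high cells against 407 CPM in Lgmn-low cells (0.27, 0.23 to 0.31), and Ndufa6 549.9 CPM against 486 CPM (0.18, 0.14 to 0.21).

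Set against crypt-like cells, Lgmn-high cells were balanced: 11 of 88 members were at least 1.5-fold higher (28.2% of all genes) and 6 at least 1.5-fold lower (37.4% of all genes), with a median log2 ratio of 0.02 against -0.17 over all genes. Both P7 enterocyte comparisons with crypt-like cells share the crypt-like group. Assembly factors were 4 of the 6 lower members, with Ndufaf2 at 18.2 CPM in Lgmn-high cells against 61.4 CPM in crypt-like cells (-1.75, -1.90 to -1.61), Ndufaf4 at 19.0 CPM against 59.9 CPM (-1.66, -1.80 to -1.51), Ndufaf5 at -1.62 and Ndufaf6 at -1.25. Against the E17.5 enterocyte-like cells of the other library, 34 of 88 members were at least 1.5-fold lower in Lgmn-high cells (14.7% of all genes) and 1 at least 1.5-fold higher (26.5% of all genes). Lgmn-low cells had 5 of 88 members at least 1.5-fold lower than E17.5 enterocyte-like cells (10.5% of all genes) and 0 at least 1.5-fold higher (17.2% of all genes). Both use the same E17.5 cells. Cox7c, a small subunit of complex IV, had 731 CPM in Lgmn-high cells and 1031 CPM in Lgmn-low cells, against 1842 CPM in E17.5 enterocyte-like cells.

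**Figure D2:**
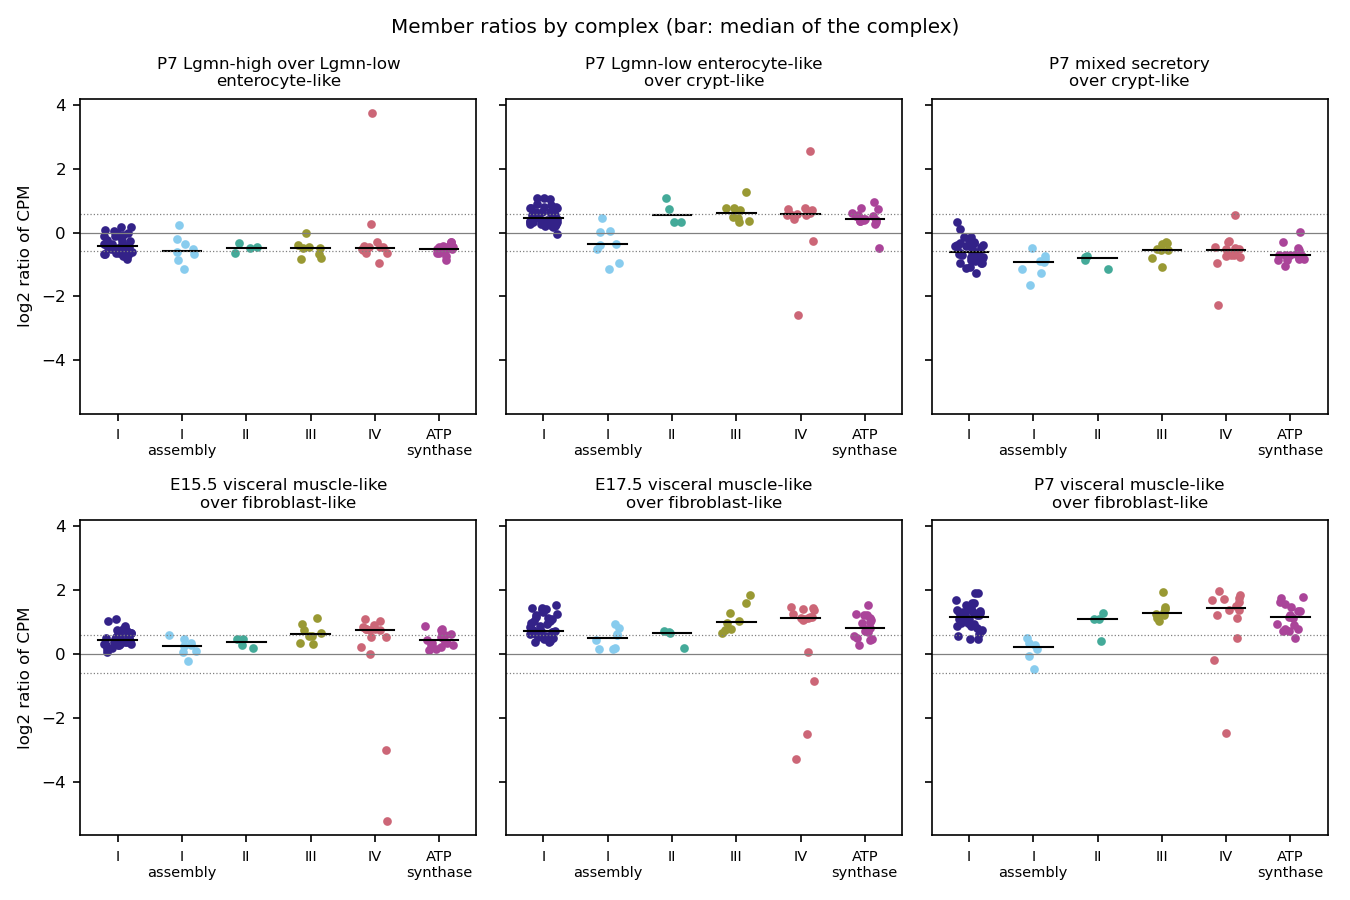
Log2 ratios of CPM in 6 class comparisons (panels), with members grouped by complex on the x axis; each point is 1 gene with 100 or more UMIs, bars are medians, the solid line marks equal CPM and the dotted lines a 1.5-fold difference. Lgmn-high over Lgmn-low ratios lie mostly below 0 (81 of 88 members), Lgmn-low over crypt-like medians lie above 0 except for assembly factors (-0.37), and visceral muscle-like over fibroblast-like medians stand higher at P7 (1.18 over all members) than at E15.5 (0.46).

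Across the 7 P7 enterocyte-like clusters the members' level was mostly lower where Lgmn was higher. Ordered from low to high Lgmn, clusters 12, 2 and 10 of the Lgmn-low group held 56717, 58052 and 42000 CPM of members. Clusters 11, 8, 6 and 14 of the Lgmn-high group held 42135, 39843, 38431 and 33246 CPM. Cluster 10, in the Lgmn-low group, thus lay within the range of the Lgmn-high clusters. Without clusters 10 and 11, the sum was 37730 CPM in Lgmn-high cells against 57573 CPM in Lgmn-low cells, and 50 members in place of 25 were at least 1.5-fold lower. The share of all genes was not computed without these clusters, so whether the larger count is particular to the members is not known. Apoa4, a lipid-carrying apolipoprotein gene, did not follow this order: it had 8511, 27358 and 9044 CPM in clusters 12, 2 and 10, and 34294, 6050.5, 22267 and 17645 CPM in clusters 11, 8, 6 and 14. The cytosolic ribosome genes were also lower in Lgmn-high than in Lgmn-low cells (42 of 80 at least 1.5-fold lower), so members were not alone in this; their part in the members' difference was not tested.

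**Figure D3:**
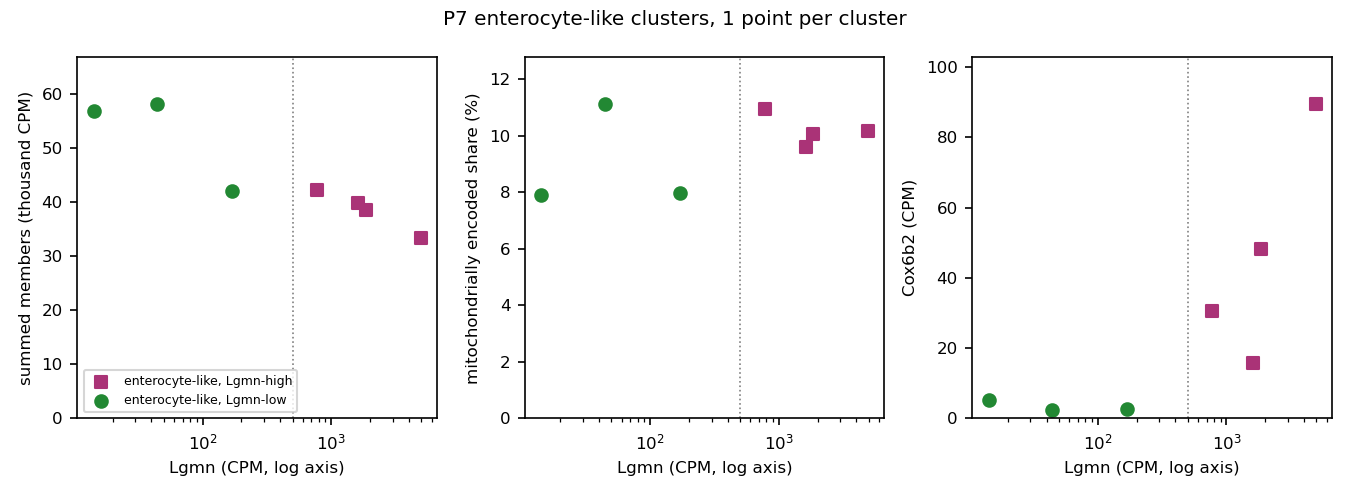
Summed member level in units of 1000 CPM, mitochondrially encoded share in percent and Cox6b2 CPM against Lgmn CPM (log axis), 1 point per P7 enterocyte-like cluster; squares are Lgmn-high, circles Lgmn-low, and the dotted line is the 500 CPM gate. The 2 clusters with the lowest Lgmn hold 56717 and 58052 CPM of members and the cluster with the highest holds 33246 CPM, while Cox6b2 is highest in that last cluster (89.4 CPM).

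Complex II and the catalytic subunits were also lower in Lgmn-high than in Lgmn-low cells. Sdha, the flavoprotein of succinate dehydrogenase, had 217 CPM in E15.5 and 217.5 CPM in E17.5 enterocyte-like cells, then 176 CPM in P7 Lgmn-high, 272 CPM in P7 Lgmn-low and 215 CPM in P7 crypt-like cells. Sdhc and Sdhd, its membrane anchors, had 156 and 244 CPM in Lgmn-high cells against 216 and 344.5 CPM in Lgmn-low cells. Atp5b, the beta subunit that makes ATP, had 1481 CPM in both prenatal enterocyte-like classes, then 1046 CPM in Lgmn-high, 1606 CPM in Lgmn-low and 1324 CPM in crypt-like cells. Atp5a1, the alpha subunit, had 857 CPM in Lgmn-high cells against 1277 CPM in Lgmn-low cells. Ndufs1, the largest core subunit of complex I, had 73.5 CPM in Lgmn-high cells against 104 CPM in Lgmn-low cells, and Ndufv1, which binds NADH, 153 CPM against 219.8 CPM. Uqcrc1, a core protein of complex III, had 285 CPM in Lgmn-high cells against 402 CPM in Lgmn-low cells. Among the enterocyte-like and crypt-like classes named here, Sdha and Atp5b were highest in P7 Lgmn-low cells and lowest in P7 Lgmn-high cells, which is not the order of the sum.

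Crypt-like cells at P7 lay below the undifferentiated epithelium of E17.5 in 84 of 88 members. At least 1.5-fold lower were 20 (8.31% of all genes), and 1, Cox6b2, was at least 1.5-fold higher (19.6% of all genes), with a median log2 ratio of -0.40 against 0.14 over all genes. Ndufs5, of complex I, had 161 CPM in P7 crypt-like cells against 292 CPM in E17.5 undifferentiated cells (-0.86, -0.92 to -0.80). These are 2 libraries and 2 differently named classes, so stage, class and library cannot be told apart.

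Secretory classes held less than crypt-like cells of the same library. In goblet-like cells (393 cells), 19 of 88 members were at least 1.5-fold lower (17.3% of all genes) and 0 at least 1.5-fold higher (16.9% of all genes), with a median log2 ratio of -0.44 against -0.06. That count is close to the share over all genes, although 83 of 88 ratios were below 0, and it was between 6 and 55 under other scalings and clusterings. In a mixed secretory cluster led by the defensin gene Defa24 (402 cells), 52 of 88 members were at least 1.5-fold lower (32.1% of all genes), with a median of -0.69 against -0.25. That count was 22 with scaling by the median ratio of all genes, 24 with cells gated one by one, 31 without the 20 top genes in the total and 32 at resolution 0.5. Ndufaf6, a complex I assembly factor, had 10.2 CPM in the mixed secretory cluster and 17.1 CPM in goblet-like cells, against 31.8 CPM in crypt-like cells. Defa24 alone took 5.76% of the UMIs of its highest class. Both comparisons share the crypt-like group. P7 goblet-like cells against E17.5 goblet-like cells had 1 of 85 members at least 1.5-fold higher (15.3% of all genes) and 0 at least 1.5-fold lower (5.23% of all genes). The enteroendocrine-like class was not compared, because 1 of its 2 P7 clusters carried more absorptive than enteroendocrine markers among its leading genes. Its P7 clusters held 25777 and 27135 CPM, and the E17.5 cluster held 23593 CPM.

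Visceral muscle-like cells held more of the members than fibroblast-like cells at each stage, and the gap was wider at E17.5 than at E15.5. Visceral muscle-like cells exceeded fibroblast-like cells at least 1.5-fold in 31 of 89 members at E15.5 (10.5% of all genes), 67 of 89 at E17.5 (10.7%) and 72 of 86 at P7 (12.4%). Members at least 1.5-fold lower were 2 of 89 (22.8% of all genes), 3 of 89 (40.8%) and 1 of 86 (38.3%). The median log2 ratios were 0.46, 0.79 and 1.18, against -0.23, -0.44 and -0.34 over all genes, and the summed levels differed by 0.58, 0.95 and 1.27. At P7, 34 of 37 members of complex I, 3 of 4 of complex II and 8 of 8 of complex III were at least 1.5-fold higher. So were 11 of 14 of complex IV and 16 of 17 of ATP synthase, but 0 of the 6 assembly factors with enough UMIs. Cox5a, of complex IV, had 502, 567 and 988 CPM in visceral muscle-like cells at E15.5, E17.5 and P7, against 347.5, 254.5 and 249.5 CPM in fibroblast-like cells (P7 log2 ratio 1.99, 1.84 to 2.13). Uqcr11 had 531, 542 and 569.7 CPM in visceral muscle-like cells against 241, 149 and 148 CPM in fibroblast-like cells (P7 log2 ratio 1.94, 1.75 to 2.13). Atp5b had 903, 1159 and 1594 CPM in visceral muscle-like cells, against 579.6, 502 and 470.2 CPM in fibroblast-like cells. The muscle level of Cox5a and Atp5b was highest at P7, while Uqcr11 varied less across the stages in muscle than in fibroblast-like cells.

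The P7 muscle class was 88 cells of 1 cluster, and the result depends on how it was drawn: with clustering at resolution 2 the P7 sum differed by 0.93, and with cells gated one by one by 1.11, in place of 1.27. The value at resolution 2 lies below the 0.95 of E17.5 in the main clustering. No E17.5 sum is given at resolution 2, so a wider gap at P7 than at E17.5 is not shown there. Absorptive markers summed to 3182 CPM in that class against 1063 CPM in P7 fibroblast-like cells; their part was not tested. Within visceral muscle, E17.5 over E15.5 had 1 of 88 members at least 1.5-fold higher (5.3% of all genes) and 1 at least 1.5-fold lower (23.1%), and P7 over E17.5 had 5 of 88 higher (20.4%) and 1 lower (13.2%). The direction of the P7 step depended on the class: 63 of 88 members lay above E17.5, but 20 of 89 at resolution 2 and 25 of 88 with cells gated one by one. Within fibroblast-like cells, E17.5 over E15.5 had 9 of 89 members at least 1.5-fold lower (8.33% of all genes) and 1 at least 1.5-fold higher (10.3%). At P7, 3 of 89 were at least 1.5-fold lower than at E17.5 (9.23%) and 1 higher (19%). These stage shares lie near or below those of all genes, and the 2 steps share the E17.5 class. Erythroid markers summed to 12305 CPM in E17.5 visceral muscle-like cells against 657 CPM at E15.5, and to 3692 CPM against 884 CPM in fibroblast-like cells; their part was not tested.

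Neuronal-like cells lay between muscle and fibroblast classes. They exceeded fibroblast-like cells at least 1.5-fold in 15 of 89 members at E15.5 (27.9% of all genes), 37 of 90 at E17.5 (29.6%) and 42 of 87 at P7 (32.3%), and were at least 1.5-fold lower in 3 (27.9%), 2 (28.5%) and 1 (27.4%). The medians were 0.27, 0.50 and 0.58, against 0.03, 0.05 and 0.11 over all genes. Ndufv3, an accessory subunit of complex I, had 412 CPM in neuronal-like cells against 162 CPM in fibroblast-like cells at E15.5 (1.34, 1.27 to 1.41) and 356 CPM against 149.5 CPM at E17.5 (1.25, 1.18 to 1.32). At P7 it had 202 CPM in neuronal-like cells against 177 CPM in fibroblast-like cells. Between stages the neuronal level was nearly flat: 3 of 90 members at least 1.5-fold higher (5.29% of all genes) and 0 lower (3.89%) at E17.5, then 3 of 89 higher (26.4%) and 4 lower (10.8%) at P7. In glial-like cells E17.5 over E15.5 had 9 of 87 members at least 1.5-fold lower (4.21% of all genes) and 0 higher (10.3%). Over the same step erythroid markers summed to 12838 CPM at E17.5 against 969 CPM at E15.5 in glial-like cells, and to 14174 CPM against 5948 CPM in neuronal-like cells; their part was not tested. At P7 they had 18 of 86 lower than at E17.5 (20.6%) and 2 higher (28.9%), a share near that of all genes, from 66 cells.

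Most tissue isoforms did not follow the sum. Cox7a1 did in part: like the sum, it was highest in enterocyte-like cells at E15.5 and E17.5 and in Lgmn-low cells at P7. Ndufa4l2, the hypoxia-inducible relative of the complex IV subunit Ndufa4, and Cox4i2, the oxygen-responsive isoform of Cox4i1, were both high in pericyte-like cells, the cells that wrap small vessels. Clusters were built without the members and the mt- genes, and neither Ndufa4l2 nor Cox4i2 was a marker. Both are among the leading genes of the pericyte-like cluster, and their levels are a description. E15.5 pericyte-like cells (118 cells) had 705 CPM of Ndufa4l2 (658 to 754) against 27.7 CPM in E15.5 fibroblast-like cells, and 556 CPM of Cox4i2 (514 to 599) against 23.2 CPM. In these cells Ndufa4l2 made 56.3% of the UMIs of Ndufa4l2 and Ndufa4 together, and Cox4i2 28.7% of those of Cox4i2 and Cox4i1. With those 2 genes included, 5 of 89 members were at least 1.5-fold higher in pericyte-like than in fibroblast-like cells (7.55% of all genes) and 2 at least 1.5-fold lower (25.6%). At E17.5, 2 unnamed clusters of 159 and 89 cells led by these genes held 1981 and 901 CPM of Ndufa4l2, and 1034 and 526 CPM of Cox4i2.

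At P7 the Eln-rich muscle cells outside the visceral class (496 cells) held 711 CPM of Ndufa4l2 (675 to 748), where visceral muscle-like cells had 0 UMIs of 600339, which allows up to 3 UMIs and a log2 ratio of at least 7.15. Cox4i2 had 211 CPM in the Eln-rich cells, against 1 UMI in visceral muscle-like cells (log2 ratio 6.99, 4.50 to 12.29). Ndufa4 went the other way, with 453 CPM in the Eln-rich cells against 1443 CPM in visceral muscle-like cells (-1.67, -1.80 to -1.53). Of 82 members, 58 were at least 1.5-fold lower in the Eln-rich cells than in visceral muscle-like cells (12.9% of all genes) and 2, Ndufa4l2 and Cox4i2, at least 1.5-fold higher (29.5%). The count of 58 was 18 with clustering at resolution 2. The 0 of Ndufa4l2 in P7 visceral muscle depended on how the class was drawn: its log2 ratio to P7 fibroblast-like cells was 3.81 with clustering at resolution 2 and 2.99 with cells gated one by one, where 0 UMIs gave a ratio lower by at least 2.48. Fibroblast-like cells had 27.7, 89.5 and 27.8 CPM of Ndufa4l2 and 23.2, 27.2 and 2.40 CPM of Cox4i2 at E15.5, E17.5 and P7. Neuronal-like cells had 87.9, 182 and 101 CPM of Ndufa4l2.

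**Figure D4:**
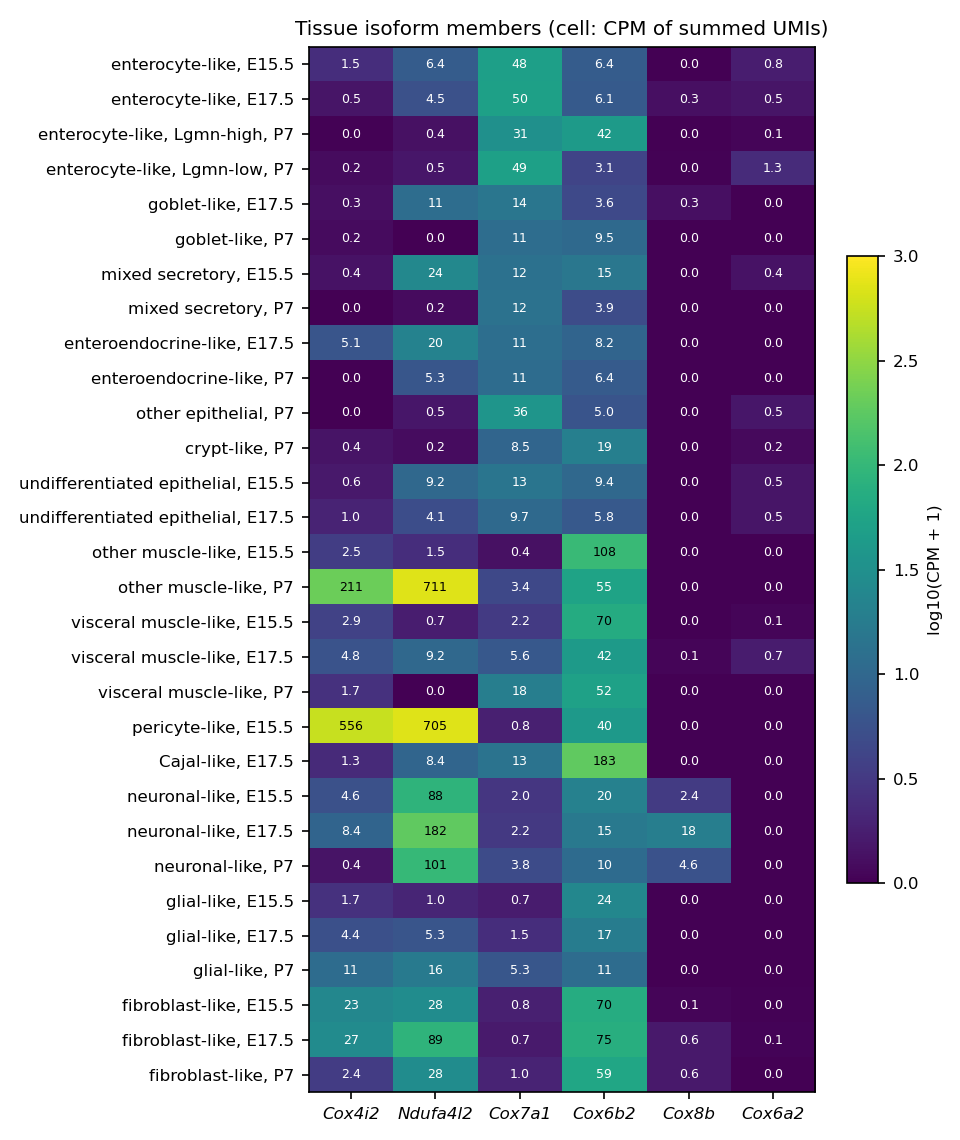
Heat map of the 6 tissue isoform members (columns) by cell class and stage (rows); each cell prints the CPM of summed UMIs and is coloured by log10(CPM + 1). Ndufa4l2 and Cox4i2 are high in E15.5 pericyte-like cells (705 and 556 CPM) and in P7 muscle outside the visceral class (711 and 211 CPM), Cox7a1 in enterocyte-like cells, and Cox6b2 in E17.5 Cajal-like cells (183 CPM).

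Cox7a1 and Cox6b2 are isoforms of complex IV known from muscle and testis. Their promoters are shown with that of Cox6b1, the widespread partner of Cox6b2, since Cox7a1 had the highest ratio of the members between Lgmn-low and crypt-like cells and Cox6b2 the highest between the P7 enterocyte-like groups. Each is 250 bases before to 50 after the start of the RefSeq gene, 5′ to 3′ on the gene's strand, build GRCm38.p6: Cox6b1 at chr7:30626065-30626364, minus strand, Cox6b2 at chr7:4753045-4753344, minus strand, and Cox7a1 at chr7:30183921-30184220, plus strand. Capitals mark matches to 4 motifs of factors known for such genes, on either strand: NRF1 (GCGCA, any base, GCGC), ETS or GABP (CCGGAAG), ERR (TCAAGGTCA) and YY1 (AAGATGGCG). Cox6b1 held 1 ETS match and the other two held none.
Cox6b1: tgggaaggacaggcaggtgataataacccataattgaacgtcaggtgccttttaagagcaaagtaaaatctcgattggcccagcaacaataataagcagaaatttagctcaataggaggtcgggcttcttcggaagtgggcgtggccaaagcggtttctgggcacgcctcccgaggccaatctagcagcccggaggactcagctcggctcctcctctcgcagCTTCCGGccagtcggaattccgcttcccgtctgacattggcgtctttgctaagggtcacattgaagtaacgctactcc
Cox6b2: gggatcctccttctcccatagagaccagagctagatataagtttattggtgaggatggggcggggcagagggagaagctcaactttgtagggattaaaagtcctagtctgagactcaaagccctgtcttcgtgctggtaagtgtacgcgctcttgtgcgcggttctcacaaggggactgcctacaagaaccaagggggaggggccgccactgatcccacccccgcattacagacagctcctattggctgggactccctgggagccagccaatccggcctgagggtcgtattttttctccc
Cox7a1: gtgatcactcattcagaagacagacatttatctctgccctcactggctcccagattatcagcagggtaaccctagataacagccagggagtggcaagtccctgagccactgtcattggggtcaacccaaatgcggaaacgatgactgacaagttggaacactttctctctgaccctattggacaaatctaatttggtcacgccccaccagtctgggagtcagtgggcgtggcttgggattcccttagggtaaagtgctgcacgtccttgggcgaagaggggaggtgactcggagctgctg

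Cox7a1 had 48.4 CPM in E15.5 and 50.1 CPM in E17.5 enterocyte-like cells, then 31.5 CPM (29.3 to 33.7) in P7 Lgmn-high cells, 49.3 CPM (46.5 to 52.3) in P7 Lgmn-low cells and 8.49 CPM in P7 crypt-like cells. Fibroblast-like cells had 0.83, 0.65 and 1.00 CPM, and visceral muscle-like cells 2.24, 5.63 and 18.3 CPM at E15.5, E17.5 and P7. Enterocyte-like cells thus stood above the muscle class for a gene named for heart and muscle, at each stage. Cox6b2 had 6.38 CPM in E15.5 and 6.13 CPM in E17.5 enterocyte-like cells, then 41.7 CPM in P7 Lgmn-high cells against 3.13 CPM in Lgmn-low cells (log2 ratio 3.74, 3.39 to 4.10). It was the 1 member at least 1.5-fold higher in Lgmn-high than in Lgmn-low cells. Over the clusters ordered by Lgmn, Cox6b2 had 5.3, 2.3 and 2.7 CPM in clusters 12, 2 and 10, and 30.6, 15.7, 48.1 and 89.4 CPM in clusters 11, 8, 6 and 14. All 4 Lgmn-high clusters lay above all 3 Lgmn-low clusters. Outside the epithelium Cox6b2 had 70.1, 74.9 and 59.2 CPM in fibroblast-like cells, where it made 13.6%, 17.8% and 17.0% of the UMIs of Cox6b2 and Cox6b1 together. E17.5 Cajal-like cells had the highest level, 183 CPM (162 to 206) and 21.5% of the pair. Cox8b, of complex IV in heart and muscle, was seen mainly in neuronal-like cells, with 2.35, 18.1 and 4.63 CPM at E15.5, E17.5 and P7. Cox6a2, another muscle isoform, reached no more than 1.35 CPM in any named class. The E17.5 library held 70 UMIs of Cox6a2, most of them outside the named classes.

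The c subunit of the ATP synthase ring comes from 3 genes, Atp5g1, Atp5g2 and Atp5g3, which give the same mature protein from different precursors, so their UMIs can be set against each other as shares of the 3. Their promoters are shown because the genes differed in class while their product does not: Atp5g1 at chr11:96075582-96075881, Atp5g2 at chr15:102670998-102671297 and Atp5g3 at chr2:73911277-73911576, all on the minus strand, windows, build and capitals as above. Atp5g2 held 1 NRF1 match, Atp5g3 held 1 NRF1 match and 1 ERR match on the other strand, and Atp5g1 held none of the 4.
Atp5g1: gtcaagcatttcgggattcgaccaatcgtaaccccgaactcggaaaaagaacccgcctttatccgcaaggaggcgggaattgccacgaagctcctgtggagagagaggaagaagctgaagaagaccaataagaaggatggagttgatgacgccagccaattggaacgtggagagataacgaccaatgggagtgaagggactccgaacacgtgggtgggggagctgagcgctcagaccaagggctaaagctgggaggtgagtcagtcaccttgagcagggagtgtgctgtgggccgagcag
Atp5g2: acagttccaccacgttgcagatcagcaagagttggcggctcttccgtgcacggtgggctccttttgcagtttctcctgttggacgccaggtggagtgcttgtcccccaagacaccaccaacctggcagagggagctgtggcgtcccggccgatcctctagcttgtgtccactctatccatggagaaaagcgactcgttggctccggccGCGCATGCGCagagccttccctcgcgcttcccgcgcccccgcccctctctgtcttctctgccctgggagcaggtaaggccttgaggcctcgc
Atp5g3: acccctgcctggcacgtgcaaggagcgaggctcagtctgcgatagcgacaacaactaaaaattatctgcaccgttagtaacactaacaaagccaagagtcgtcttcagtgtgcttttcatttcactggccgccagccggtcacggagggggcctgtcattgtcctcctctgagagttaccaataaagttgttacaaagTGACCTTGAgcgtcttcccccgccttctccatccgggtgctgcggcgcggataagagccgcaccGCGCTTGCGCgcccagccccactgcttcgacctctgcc

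Atp5g1 made 54.2% of the c-ring UMIs in E15.5 and 51.8% in E17.5 enterocyte-like cells, then 40.8% in P7 Lgmn-high and 44.5% in P7 Lgmn-low cells, against 32.4%, 26.8% and 33.6% in fibroblast-like cells at the 3 stages. Atp5g2 was the leading gene in fibroblast-like cells, at 47.3%, 53.4% and 42.4%, and in glial-like cells, at 51.7%, 60.2% and 44.4%. Atp5g3 had a larger share in P7 than in prenatal enterocyte-like cells, with 24.5%, 24.6% and then 37.1% (Lgmn-high) and 35.6% (Lgmn-low), against 25.3% in P7 crypt-like cells. In levels, Atp5g1 had 808 CPM in Lgmn-high and 1343 CPM in Lgmn-low cells, against 1729 CPM in E17.5 enterocyte-like cells. Atp5g3 had 735 CPM in Lgmn-high and 1076 CPM in Lgmn-low cells, against 821 CPM in E17.5 enterocyte-like cells. Both Atp5g1 and Atp5g2 have near-identical pseudogenes, to which reads could be split, so the shares are uncertain by an amount not known here. The same holds for 14 of 92 members, Atp5l, Cox7c, Cox6c, Uqcrb, Uqcr11, Ndufs5 and Ndufb11 among them.

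The 74 members with a RefSeq entry had 79 promoters. NRF1 matches were found in 25.3% of these against 4.60% of all 32851 promoters, ETS matches in 24.1% against 8.86%, YY1 matches in 10.1% against 1.40% and ERR matches in 2.53% against 0.423%. At least 1 of the 4 motifs lay in any promoter of 39 of 74 members (52.7%, counted per gene) and in 13.9% of all promoters (counted per promoter). None of the 4 motifs contains another. A match is a description of the sequence and not a bound site.

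In enterocyte-like cells the mitochondrially encoded share did not run with the nuclear-encoded level across the stages or in the Lgmn-high group. P7 Lgmn-low and crypt-like cells had nearly the same ratio of both. In enterocyte-like cells the 13 mt- genes took 4.51% of UMIs at E15.5 and 6.75% at E17.5, then 10.2% in P7 Lgmn-high and 9.35% in P7 Lgmn-low cells, against 6.58% in P7 crypt-like cells. Per member UMI there were 0.76 mt- UMIs at E15.5, 1.19 at E17.5, then 2.62 in Lgmn-high, 1.77 in Lgmn-low and 1.78 in crypt-like cells. Between the 2 enterocyte groups the mt- genes were about level, with 0 of 13 at least 1.5-fold higher (16.9% of all genes) or lower (12.8%) and a median log2 ratio of 0.09, while the nuclear-encoded median was -0.46. Lgmn-low over crypt-like cells had 4 of 13 mt- genes at least 1.5-fold higher (23.2% of all genes) with a median of 0.41, beside 0.47 for the members. The mt- share difference between Lgmn-high and Lgmn-low cells, 0.845 percentage points, was -0.052 without clusters 10 and 11, so it rests on the clusters next to the gate; the ratio per member UMI did not, with 2.63 in Lgmn-high against 1.73 in Lgmn-low cells.

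In Lgmn-high cells 54.2% of cells held 10% or more of mt- UMIs, against 38.2% of Lgmn-low and 9.40% of crypt-like cells, close to the 15.0% limit of the deposited cells. The effect of that limit on these shares was not tested. Single mt- genes also differed: mt-Co1, the catalytic subunit of complex IV, made 16.3% of mt- UMIs in Lgmn-high cells, 12.3% in Lgmn-low and 11.5% in crypt-like cells, and mt-Atp6, of ATP synthase, 17.9%, 21.4% and 22.9%. Classes outside the epithelium had lower shares than both P7 enterocyte-like groups. In visceral muscle-like cells the mt- share was 4.94%, 5.61% and 7.46%, in neuronal-like cells 3.79%, 4.61% and 6.04%, in glial-like cells 3.95%, 4.52% and 5.04%, and in fibroblast-like cells 3.69%, 4.08% and 3.71%, at E15.5, E17.5 and P7. The ratio of mt- to member UMIs was higher at each later stage in all 4: 1.27, 1.32 and 1.59 in muscle, 1.18, 1.52 and 2.17 in neuronal, 1.43, 1.98 and 2.60 in glial and 1.42, 1.85 and 1.92 in fibroblast classes. The whole libraries had mt- shares of 3.80%, 4.80% and 7.80%, so the library and the stage cannot be told apart here. Cajal-like cells of E17.5 had 7.16%.

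**Figure D5:**
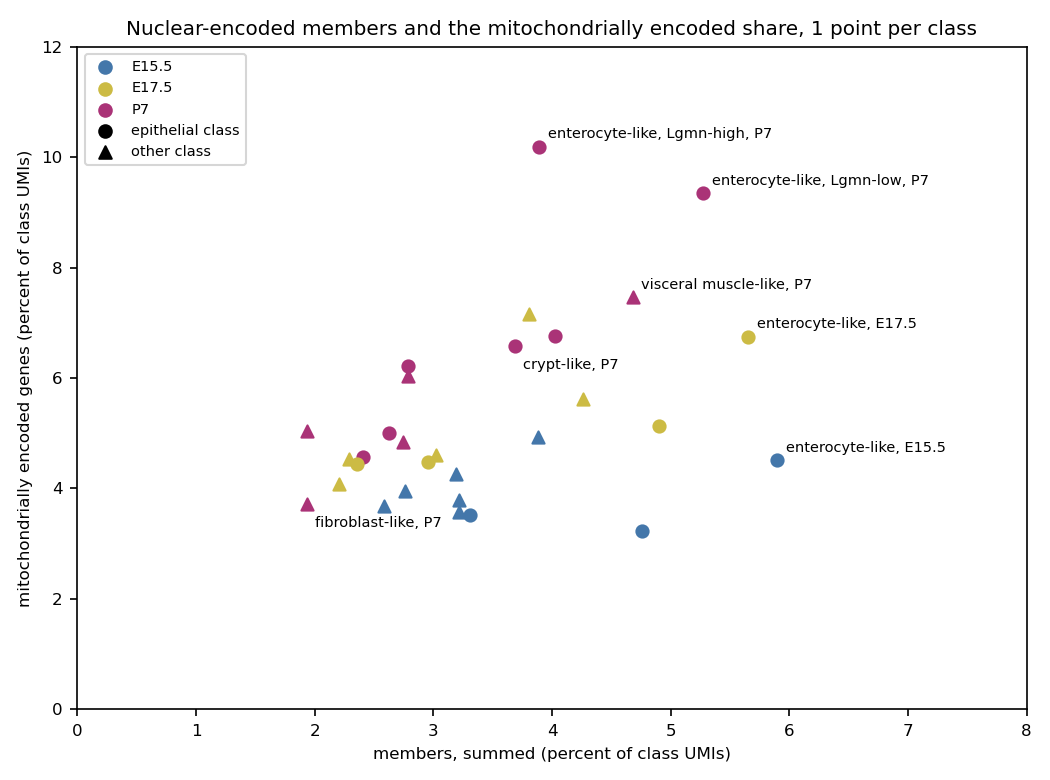
Mitochondrially encoded share against the summed share of nuclear-encoded members, both in percent of class UMIs, 1 point per cell class; colours give the stage, circles epithelial and triangles other classes. P7 Lgmn-high enterocyte-like cells lie at 10.2% and 3.89%, P7 Lgmn-low cells at 9.35% and 5.27%, and the E15.5 enterocyte-like class at 4.51% and 5.90%.

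Other mitochondrial lists moved partly with the members. Of 16 genes of the TCA cycle and pyruvate dehydrogenase, 9 were at least 1.5-fold lower in Lgmn-high than in Lgmn-low cells (12.8% of all genes, median -0.62). In Lgmn-low over crypt-like cells, 6 of them were at least 1.5-fold higher (23.2% of all genes, median 0.35). In P7 visceral muscle-like over fibroblast-like cells, 12 of them were at least 1.5-fold higher (12.4% of all genes, median 1.01). Ogdh, of the 2-oxoglutarate dehydrogenase, had 237 CPM in Lgmn-low cells against 87.2 CPM in crypt-like cells (1.44, 1.38 to 1.51), and Dlat, of pyruvate dehydrogenase, 20.3 CPM in Lgmn-high against 53.4 CPM in Lgmn-low cells (-1.40, -1.54 to -1.25). The lists that follow compare Lgmn-low with crypt-like cells, where 23.2% of all genes were at least 1.5-fold higher and 36.1% at least 1.5-fold lower, with a median of -0.22. Of 78 genes of the mitochondrial ribosome, 3 were at least 1.5-fold higher and 16 at least 1.5-fold lower, both smaller shares than those of all genes, and the median of -0.25 was close to theirs. Of 80 cytosolic ribosome genes, 76 were at least 1.5-fold lower there (median -1.18). Of 12 regulators of mitochondrial biogenesis, 3 were at least 1.5-fold higher and 7 lower (median -0.81). Ppargc1a, the coactivator PGC-1 alpha, had 25.5 CPM in Lgmn-low against 10.2 CPM in crypt-like cells (1.32, 1.13 to 1.52), and Esrra, a nuclear receptor of the ERR family, 118 CPM against 54.9 CPM (1.11, 1.02 to 1.20). Pprc1, a related coactivator, had 2.61 CPM in Lgmn-low against 20.7 CPM in crypt-like cells (-2.99, -3.39 to -2.60). Of 24 assembly genes for complexes other than I, 4 were at least 1.5-fold higher and 4 lower, both below the shares of all genes, with Cox17, a copper chaperone for complex IV, at 226 CPM in Lgmn-low against 89.8 CPM in crypt-like cells (1.33, 1.27 to 1.40). Of 12 other electron carrier genes, 5 were higher and 2 lower, with Etfdh, which feeds electrons from fat oxidation into the chain, at 101 CPM against 44.5 CPM (1.18, 1.09 to 1.28).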

How the data were processed

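The authors deposited UMI counts for each gene in each cell; the values are whole numbers that had not been normalized. The submitters' processing notes name Cell Ranger 7.2.0 and the builds mm10 and GRCm38. The 92 members, the gene lists, the Lgmn gate and the alternatives were chosen with earlier results of these data known.

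A filter of 500 genes and 15% mitochondrial UMIs removed 0 cells. Scrublet (scanpy 1.11.5, expected rate 6%) marked 243, 453 and 389 cells as doublets, which were left out. Each library was clustered alone (2000 variable genes, 30 components, 15 neighbours, Leiden resolution 1, leidenalg 0.10.2), giving 28, 32 and 31 clusters. The 92 members and the 13 mt- genes took no part in the clustering. A cluster took the class with the highest mean of its 5 best marker scores, with a lead of 0.5 on the log2 scale, at least 3 detected markers and at least 50 cells. Cells left unnamed numbered 1199, 568 and 135. Muscle clusters with 1000 CPM of Actg2 and 500 CPM of Des were called visceral.

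UMIs were summed per class and scaled to CPM. Intervals came from scipy 1.17.1. Genes with 100 UMIs over both classes entered a comparison. The ratio code was tested on simulated data. The text names, per comparison, members among the 5 highest and 5 lowest ratios, the tissue isoforms, the c-ring and Sdh genes, Ndufs1, Ndufv1, Uqcrfs1, Uqcrc1, Atp5a1 and Atp5b, and members with a 4-fold spread over classes. Up to 4 genes, the extreme ratios, are named from other lists. Near-identical pseudogenes were found with BLAST+ 2.17.0 over the last 300 bases of each transcript (98% identity over 90 bases).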

Additional observations from a re-analysis of the deposited data

How the results depend on the processing

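No paired analysis was possible because each stage has 1 library, and leaving out a replicate was not possible for the same reason. Each comparison was recomputed without doublet removal, with clustering at resolution 0.5 and 2, with cells under 10% of mitochondrial UMIs, with cells gated one by one on their own marker UMIs, with 4 other scalings or weights (nuclear genes only in the total, the total without 20 top genes, scaling by the median ratio of all genes, and the mean over cells), with other UMI minimums (30 and 300) and with a 2-fold threshold. Leaving out P7 clusters 10 and 11, or E17.5 cluster 31, was chosen after seeing the data. The P7 mixed secretory class was not found under 3 of these settings, E15.5 enterocyte-like cells under 2, P7 glial-like and E15.5 pericyte-like cells under 1 each, and no value is given there. Over the summaries of comparisons, 299 values stayed within their bounds, 83 moved and 1 turned round. Bounds were 1.5-fold of the main value for counts, and the counting interval for summed ratios and mt- share differences. Counts could not be listed as turned round, so a majority of members that changed direction is among the moved values. That was so for P7 over E17.5 visceral muscle and for E17.5 over E15.5 enterocyte-like cells. The causes of these moves were not tested beyond what each setting changes. Shares over all genes were computed for the main setting only, so counts under other settings stand without them. Depth limits the P7 glial-like and visceral muscle-like classes most.

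The summed log2 ratio of Lgmn-high over Lgmn-low cells, -0.44, stayed negative: it was -0.43 with doublets kept, -0.39 at resolution 0.5, -0.45 at resolution 2, -0.40 under 10% mitochondrial UMIs, -0.39 with gated cells, -0.42 on nuclear genes, -0.43 without 20 top genes, -0.48 by the median ratio, -0.45 as the mean over cells and -0.61 without clusters 10 and 11. Members at least 1.5-fold lower there were 25, then 1 at 2-fold and 50 without clusters 10 and 11. Lgmn-low over crypt-like cells, 0.52, stayed positive, at 0.55, 0.47, 0.54, 0.53, 0.49, 0.56, 0.66, 0.73, 0.54 and 0.64 in the same order of settings, and its count of 30 was 47 without 20 top genes, 54 by the median ratio, 6 at 2-fold and 46 without clusters 10 and 11. P7 visceral muscle-like over fibroblast-like cells, 1.27, was 1.25 with doublets kept, 0.93 at resolution 2, 1.11 with gated cells, 1.33 on nuclear genes, 1.37 without 20 top genes, 1.62 by the median ratio and 1.25 as the mean over cells.

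Scaling by the median ratio of all genes changed these counts: 57 in place of 34 for Lgmn-high below E17.5 enterocyte-like cells, 33 in place of 53 of 87 members with a ratio below 0 in E17.5 against E15.5 enterocyte-like cells, 38 in place of 20 for crypt-like below undifferentiated cells, 9 in place of 19 for goblet-like and 22 in place of 52 for mixed secretory below crypt-like cells, and 59 in place of 31 for E15.5 muscle above fibroblast. The total without 20 top genes gave 6 for goblet-like and 31 for mixed secretory cells. Resolution 0.5 gave 55 and 32 for the same, and resolution 2 gave 35 for goblet-like cells. Goblet-like cells gave 39 under 10% mitochondrial UMIs and 47 as the mean over cells. Gated cells gave 24 for mixed secretory cells, 47 for E15.5 muscle above fibroblast and 7 in place of 18 for P7 below E17.5 glial-like cells. P7 visceral muscle had 63 of 88 members above E17.5, but 20 of 89 at resolution 2 and 25 of 88 with gated cells. Eln-rich below visceral muscle gave 18 in place of 58 at resolution 2.

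The 2-fold threshold gave 7 for Lgmn-high below E17.5 enterocyte-like cells, 0 for crypt-like below undifferentiated, 1 for goblet-like and 10 for mixed secretory below crypt-like, 8 for P7 below E17.5 glial-like, 5 and 35 for muscle above fibroblast at E15.5 and E17.5, 5, 8 and 8 for neuronal above fibroblast at E15.5, E17.5 and P7, and 15 for Eln-rich below visceral muscle. Reversed single members were Ndufaf6 in goblet-like cells at P7 over E17.5 (-0.19 with doublets kept, -1.40 at resolution 0.5, in place of 0.67), Ndufaf6 in glial-like cells (0.29 with gated cells, in place of -1.58) and Ndufa4l2 in P7 visceral muscle, over E17.5 muscle (5.40 at resolution 2, 4.67 with gated cells) and over fibroblast-like cells (3.81 and 2.99).

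The mitochondrial share of Lgmn-high minus crypt-like cells, 3.61 percentage points, was 3.59 with doublets kept, 3.69 at resolution 0.5, 3.74 at resolution 2, 2.16 under 10% mitochondrial UMIs, 3.78 with gated cells, 3.47 as the mean over cells and 3.33 without clusters 10 and 11. Lgmn-low minus crypt-like cells, 2.77, was 2.68, 2.45, 2.74, 1.41, 2.28, 2.57 and 3.39 in that order. Lgmn-high minus Lgmn-low cells, 0.845, was 0.911, 1.24, 0.997, 0.757, 1.498, 0.896 and, turned round, -0.052.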
